A study of Mus musculus with 6 samples.

Results

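Ion channels set the resting potential, the action potential and the pacemaker activity of heart muscle cells. Described here are 9 channel genes, taken as a set by name, of 27179 genes in the bulk count table. All 9 passed the filter on low counts, which kept 14041 genes. Kcnj2, Kcnj3, Kcnj11, Abcc9, Kcnq1 and Kcne1 belong to potassium currents, Hcn4 carries the pacemaker current, and Cacna1g and Cacna1h carry the T-type calcium current. The set holds no sodium channel gene.

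Immature cardiomyocytes (imCMs) of C57BL/6 mice, isolated shortly after birth, were co-cultured with cardiac fibroblasts of the same strain, which were neonatal (NFs) or adult (AFs). Bulk RNA-Seq gave 2 imCM-NF and 2 imCM-AF libraries, with 9278909 to 12088577 counts each, and asked how fibroblast age affects gene expression in imCMs. Single-cell RNA-Seq in nanowells (ICELL8), which counts transcripts by unique molecular identifiers (UMIs), gave 1 library labelled as cardiomyocytes and 1 labelled as fibroblasts. Per the study's methods, the cardiomyocytes came from left ventricles, the fibroblasts were passaged before use, cells were sorted on tracker dyes, and fewer NFs than AFs were plated per imCM, while the labels name centrifugation as the separation. Nothing states that the libraries of a group came from separate animals or cultures, so p values measure the spread between these libraries, which may be technical.

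By way of background, the inward rectifier current IK1 holds the resting potential of working cardiomyocytes and is weak in immature cells. IKACh is opened by acetylcholine through G proteins and is best known from atrial and nodal cells. IKATP opens when the cell runs short of ATP and needs both a Kir6 pore and a sulfonylurea receptor. The slow delayed rectifier IKs helps to end the action potential. Hcn4 and the T-type calcium channels are abundant in the embryonic heart and the sinoatrial node and decline in the ventricle after birth.

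RefSeq promoter entries of GRCm38.p6 were found for 4 of the 9 genes. They are Kcnj2, Kcnj3 and Abcc9, which were higher in imCM-AF, and Hcn4, which was lower, so both directions of change are shown. The 250 bases before each start are printed on the strand of the gene, 5′ to 3′. A GATA factor motif (AGATAA), a T-box motif (GGTGTGA), an estrogen-related receptor half-site (AAGGTCA) and the GC box (GGGCGG) were searched on both strands. Capitals mark the matches, which do not overlap each other and read as the reverse complement where the match is on the other strand. Kcnj2 is shown at chr11:111065914-111066163, plus strand. Kcnj3 is shown at chr2:55435720-55435969, plus strand, before a start inside the span of the gene. Abcc9 is shown at chr6:142702275-142702524, minus strand, also before a start inside the span of the gene. Hcn4 is shown at chr9:58822699-58822948, plus strand.
Kcnj2: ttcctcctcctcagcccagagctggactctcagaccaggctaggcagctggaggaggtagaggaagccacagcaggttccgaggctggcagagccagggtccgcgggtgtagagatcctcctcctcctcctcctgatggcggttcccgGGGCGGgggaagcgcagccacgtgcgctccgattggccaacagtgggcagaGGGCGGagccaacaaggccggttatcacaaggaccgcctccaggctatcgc
Kcnj3: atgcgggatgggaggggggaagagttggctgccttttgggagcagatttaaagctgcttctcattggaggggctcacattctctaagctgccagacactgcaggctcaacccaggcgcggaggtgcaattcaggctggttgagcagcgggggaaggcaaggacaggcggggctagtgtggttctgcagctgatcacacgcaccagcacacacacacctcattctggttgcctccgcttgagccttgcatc
Abcc9: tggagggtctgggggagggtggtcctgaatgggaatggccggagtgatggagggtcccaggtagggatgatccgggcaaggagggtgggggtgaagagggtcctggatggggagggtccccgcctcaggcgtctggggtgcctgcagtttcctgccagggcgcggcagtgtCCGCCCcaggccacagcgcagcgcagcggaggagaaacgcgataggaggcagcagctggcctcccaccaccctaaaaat
Hcn4: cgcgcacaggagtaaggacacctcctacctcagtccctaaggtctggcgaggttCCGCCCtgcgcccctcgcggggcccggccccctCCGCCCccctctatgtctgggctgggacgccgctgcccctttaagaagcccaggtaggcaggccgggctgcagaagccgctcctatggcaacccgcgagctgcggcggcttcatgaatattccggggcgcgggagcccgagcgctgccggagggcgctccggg

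Of the 4 motifs, the GC box alone was found, with 2 matches for Kcnj2, 1 for Abcc9, 2 for Hcn4 and 0 for Kcnj3. Each motif was searched only in the exact letters given above, so other spellings of it may be present. Of 32851 promoters in the same table, 32.7% hold a GC box in a window of this length, 9.99% the GATA factor motif, 4.08% the half-site and 3.33% the T-box motif. The GC content was 65.6% for Kcnj2, 58.4% for Kcnj3, 66.8% for Abcc9 and 71.2% for Hcn4, against a median of 52.4% over all of these promoters. A match describes the letters and is not a binding site.

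In bulk, 5 of the 9 genes were higher in imCM-AF, 1 was lower and 3 did not pass the test. Calls needed an adjusted p below 0.05 by the quasi-likelihood test of edgeR and an absolute log2 fold change above 0.58. By this rule 11.1% of tested genes were called, 6.15% as higher and 4.99% as lower. Kcnj2, Kcnj3, Kcnj11, Abcc9 and Cacna1h rose, and Hcn4 fell. The median log2 fold change of the 9 genes was 0.60, beside 0.0011 over all tested genes. The 9 genes were chosen with earlier results of these data known. Their calls and median therefore describe these genes and do not test the set against all genes. The libraries of the groups did not overlap for 6 of the 9 genes, and this held for 66% of tested genes. Levels are CPM, the counts of a gene per 1000000 counts of a library after TMM scaling, given for replicate 1 and replicate 2 of each group.

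**Figure D1:**
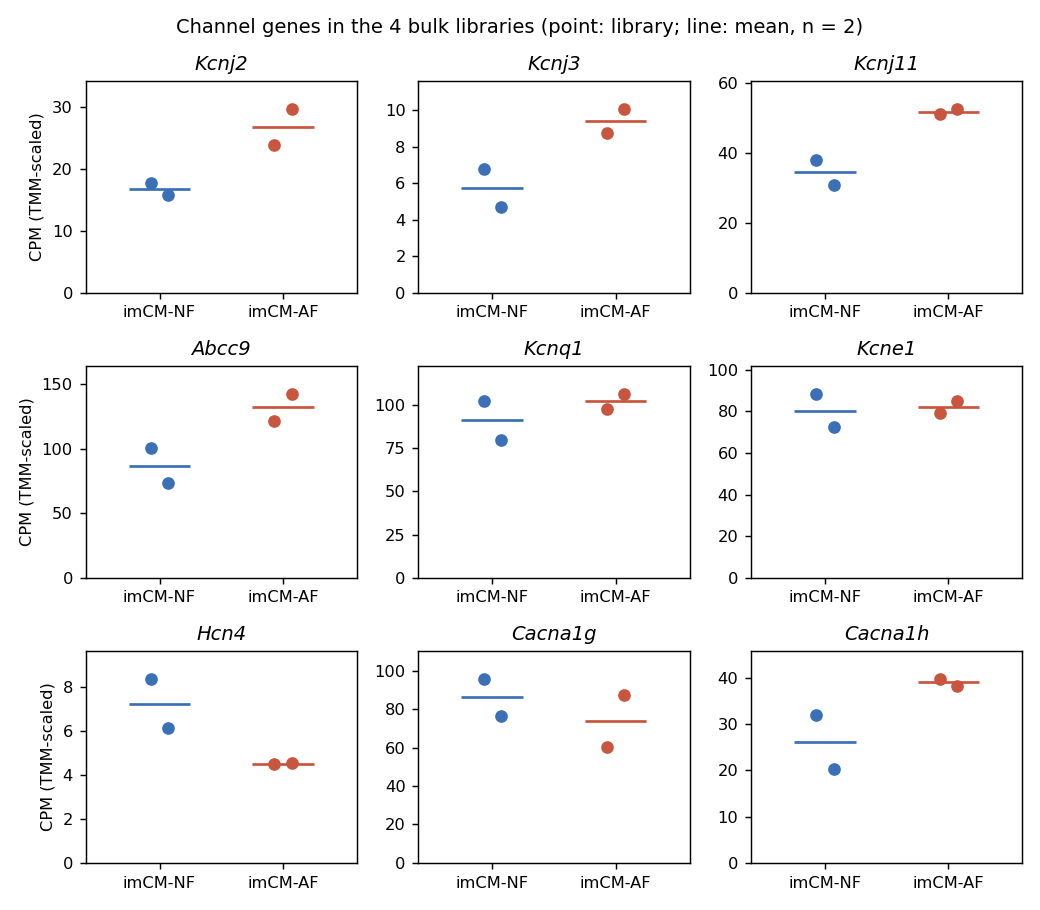
CPM (TMM-scaled) of the 9 channel genes, with imCM-NF in blue and imCM-AF in red. Each point is a library and each line the mean of 2 libraries. The groups overlap for Kcnq1, Kcne1 and Cacna1g, and of the other 6 genes Hcn4 is the one with imCM-AF below imCM-NF.

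Whether a gene passed the fold threshold depended on single libraries. Without imCM-NF replicate 2, Kcnj3, Kcnj11, Abcc9 and Cacna1h dropped under it, and without imCM-AF replicate 2, Kcnj2 and Abcc9 did. Without imCM-NF replicate 1, the fall of Hcn4 was smaller than the threshold. At a log2 threshold of 1, 0 of the 9 were called, as the largest of their log2 fold changes was 0.74. Calls over all tested genes also fell at that threshold and changed without single libraries, as given further below. Several cell type marker lists moved with the groups, while the sums of cardiomyocyte markers overlapped. The 10 cardiomyocyte markers summed to 41472 and 30314 CPM in imCM-NF and to 38745 and 42413 CPM in imCM-AF, lowest in imCM-NF replicate 2. Fibroblast markers, also 10 genes, summed to 16659 and 18297 CPM in imCM-NF and to 11595 and 9155 CPM in imCM-AF, and 5 of the 10 fell. Of the endothelial markers 4 of 8 fell, of the smooth muscle and pericyte markers 3 of 8, and of the macrophage markers 2 of 8. The macrophage genes that fell, C1qa and C1qb, had at most 28 counts per library. Of the macrophage list 3 genes had a log2 fold change above 0, and 0 were called higher. In bulk RNA, fewer cells of a type and less RNA per cell cannot be told apart.

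Per 1000 CPM of cardiomyocyte markers, the 5 genes that rose stood higher in both imCM-AF libraries than in both imCM-NF libraries. The share of all tested genes without overlap was not computed on this scale. It was 66% on the TMM scale, so lack of overlap alone says little about these genes. On this scale Abcc9 had 2.42 and 2.42 in imCM-NF against 3.13 and 3.36 in imCM-AF, and Kcnj2 had 0.425 and 0.520 against 0.612 and 0.699. Hcn4 had 0.202 and 0.202 against 0.115 and 0.107. Kcne1 (2.13 and 2.38 against 2.04 and 2.00) and Cacna1g (2.31 and 2.53 against 1.55 and 2.06) lay lower in both imCM-AF libraries, and Kcnq1 overlapped. EdgeR was also run with libraries scaled to the marker counts, chosen after seeing the data. The median log2 fold change of all genes then moved to -0.21 and 0 of the 9 genes were called. Calls over all tested genes fell too, as given further below. The adjusted p in that edgeR fit ran from 0.144 for Hcn4 to 0.982 for Kcnq1.

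IK1 is taken first. Kcnj2 (Entrez 16518, GRCm38 chromosome 11, 111066164 to 111076825) encodes Kir2.1, the main pore of this current. Its level was 17.6 and 15.8 CPM with NFs, and 23.7 and 29.7 CPM with AFs. Both imCM-AF libraries were above both imCM-NF libraries. Kcnj2 rose by a log2 fold change of 0.69 ± 0.14 (SE, adjusted p = 0.00156, edgeR). The call was lost without imCM-NF replicate 2 (0.61, adjusted p = 0.0505, edgeR) and without imCM-AF replicate 2 (0.52, under the fold threshold). Kcnj12, the related pore Kir2.2, was at 10.8 and 11.8 CPM with NFs, and at 15.1 and 14.5 CPM with AFs, and was not called (0.38 ± 0.15, adjusted p = 0.0704, edgeR).

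Both subunits of the IKACh channel were higher in imCM-AF. Kcnj3 (Entrez 16519, chromosome 2, 55411798 to 55598145) encodes Kir3.1. It had few reads, with 61 and 57 raw counts in imCM-NF against 96 and 120 in imCM-AF. These are 6.80 and 4.71 CPM with NFs, and 8.76 and 10.1 CPM with AFs, and the groups do not overlap. The difference was 0.74 ± 0.21 on the log2 scale (adjusted p = 0.0152, edgeR), and DESeq2 did not call it (adjusted p = 0.0837). It was not called without imCM-NF replicate 2 (0.48) or without imCM-AF replicate 2 (0.64). Exons of Kcnj3 share 1621 bases with Gm26794, a long non-coding RNA on the other strand, and whether counting used strand is not stated. Kcnj5, the partner pore Kir3.4, was at 33.9 and 33.4 CPM with NFs, and at 50.1 and 54.9 CPM with AFs (0.64 ± 0.10, adjusted p = 0.000208, edgeR).

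For IKATP, a pore and both receptors rose. Kcnj11 (Entrez 16514, chromosome 7, 46097123 to 46100952) encodes the pore Kir6.2. Its level was 37.8 and 30.9 CPM with NFs, and 50.9 and 52.6 CPM with AFs, with no overlap. Kcnj11 rose by 0.60 ± 0.11 on the log2 scale (adjusted p = 0.000736, edgeR), and without imCM-NF replicate 2 the value was 0.46, under the fold threshold. Abcc9 (Entrez 20928, chromosome 6, 142587862 to 142702766) encodes the receptor SUR2. Its level was 100.4 and 73.3 CPM with NFs, and 121 and 142 CPM with AFs, again with no overlap. Abcc9 rose by 0.61 ± 0.13 (adjusted p = 0.00195, edgeR), and was under the fold threshold without imCM-NF replicate 2 (0.40) or without imCM-AF replicate 2 (0.49). Its exons share 158 bases with the antisense RNA 5330439B14Rik. The other receptor, Abcc8 (SUR1), was at 31.0 and 26.2 CPM with NFs, and at 46.2 and 48.4 CPM with AFs (0.73 ± 0.11, adjusted p = 0.000127, edgeR). Kcnj8, the Kir6.1 pore, lay near the filter with 11 to 19 counts per library and was not called (0.31 ± 0.38, adjusted p = 0.574, edgeR).

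The IKs pair did not pass the test. Kcnq1 (Entrez 16535, chromosome 7, 143106877 to 143427050), the pore, was at 103 and 79.9 CPM with NFs, and at 97.7 and 106 CPM with AFs. The groups overlap. Its log2 difference of 0.17 ± 0.11 had a 95% interval of -0.07 to 0.40 (adjusted p = 0.28, edgeR). Exons of Kcnq1 share 121 bases with the antisense RNA Kcnq1ot1. Kcne1 (Entrez 16509, chromosome 16, 92346001 to 92359468), the accessory subunit that slows this channel, was at 88.4 and 72.2 CPM with NFs, and at 78.9 and 84.9 CPM with AFs. Its log2 difference of 0.03 ± 0.11 had a 95% interval of -0.19 to 0.26 (adjusted p = 0.848, edgeR). For Kcne1 the sign turned when imCM-NF replicate 2 was left out (-0.10) and when imCM-AF replicate 2 was (-0.01), and it turned for both genes when libraries were scaled to cardiomyocyte markers.

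Of the pacemaker genes, Hcn4 fell while Hcn2 rose. Hcn4 (Entrez 330953, chromosome 9, 58822949 to 58863175) had 75 and 74 raw counts in imCM-NF against 49 and 54 in imCM-AF. These are 8.36 and 6.11 CPM with NFs, and 4.47 and 4.54 CPM with AFs, so the imCM-AF libraries were nearly equal and below both imCM-NF libraries. Hcn4 fell by 0.66 ± 0.22 on the log2 scale (adjusted p = 0.0376, edgeR). DESeq2 did not call it (adjusted p = 0.175), nor did edgeR with upper quartile scaling (adjusted p = 0.0511) or with the replicate number as a block (adjusted p = 0.0573). Leaving out imCM-NF replicate 2 kept the call (-0.88), and leaving out imCM-NF replicate 1 (-0.44), imCM-AF replicate 1 (-0.64) or imCM-AF replicate 2 (-0.67) lost it. Hcn2 was at 10.03 and 8.51 CPM with NFs, and at 16.0 and 17.0 CPM with AFs (0.84 ± 0.16, adjusted p = 0.000937, edgeR). Of 6 atrial markers 1 fell, the natriuretic peptide gene Nppa (-0.87 ± 0.22, adjusted p = 0.00751, edgeR), and the other 5 were not called, with log2 differences from 0.02 for Stard10 to 0.32 for Nr2f1. Of 5 nodal markers 4 were tested and 1 fell, Smoc2 (-1.25 ± 0.15, adjusted p = 1.84e-05, edgeR), while Isl1 was under the filter. Tbx3 went the other way (0.39 ± 0.13, adjusted p = 0.0394, edgeR), under the fold threshold. Shox2 (-0.05) and Tbx18 (-0.08) were not called.

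The T-type calcium channel genes gave values of opposite sign. Cacna1h (Entrez 58226, chromosome 17, 25374285 to 25436334), which encodes Cav3.2, was at 32.0 and 20.2 CPM with NFs, and at 39.7 and 38.2 CPM with AFs, without overlap. Cacna1h rose by 0.60 ± 0.15 (adjusted p = 0.00749, edgeR), and the value was 0.29 without imCM-NF replicate 2 (adjusted p = 0.157, edgeR). Its exons share 158 bases with Tpsg1 on the other strand. Cacna1g (Entrez 12291, chromosome 11, 94408391 to 94474400), which encodes Cav3.1, was at 95.7 and 76.6 CPM with NFs, and at 60.1 and 87.4 CPM with AFs. The imCM-AF libraries lay on both sides of imCM-NF replicate 2. Its log2 difference of -0.22 ± 0.14 had a 95% interval of -0.51 to 0.08 (adjusted p = 0.262, edgeR), and turned to 0.04 without imCM-AF replicate 1.

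**Figure D2:**
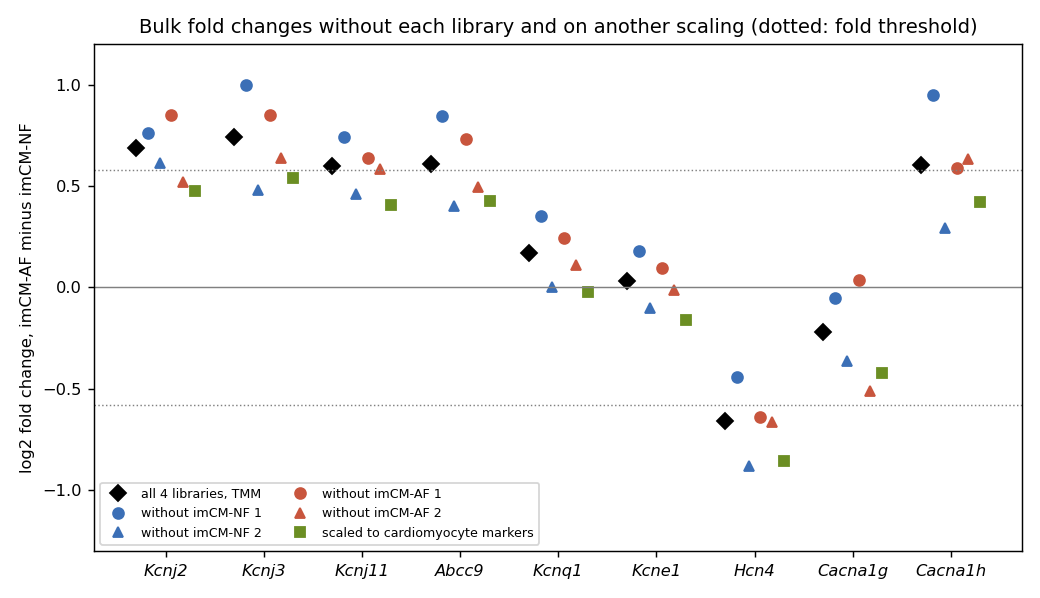
Log2 fold change of each of the 9 genes with all 4 libraries (black), without each library in turn (blue and red) and with libraries scaled to cardiomyocyte markers (green squares). Dotted lines mark the fold threshold of 0.58. Kcnj11, Abcc9 and Cacna1h drop under it without imCM-NF replicate 2, to 0.46, 0.40 and 0.29.

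Of 27 further channel genes listed by current, 22 passed the filter, of which 6 rose, 0 fell and 16 were not called. Their median log2 fold change was 0.34, and this list was also chosen with earlier results of these data known. DESeq2 and limma-voom also called 6 of them, and the calls of these tools over all tested genes are not given here. Scaling to cardiomyocyte markers left 0, and calls over all tested genes also fell with that scaling, as given further below. Besides Kcnj5, Abcc8 and Hcn2, the genes that rose were Kcnip2, Kcnk3 and Kcnn2. Kcnip2, the accessory subunit of the transient outward current, was at 4.12 and 3.80 CPM with NFs, and at 8.03 and 7.39 CPM with AFs (0.96 ± 0.21, adjusted p = 0.00333, edgeR). Kcnk3, the background channel TASK-1, was at 38.8 and 36.6 CPM against 64.4 and 55.7 CPM (0.67 ± 0.10, adjusted p = 0.000174, edgeR). Kcnn2, a calcium-activated potassium channel, was at 4.01 and 3.88 CPM against 7.39 and 8.40 CPM (1.003 ± 0.21, adjusted p = 0.0025, edgeR).

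Several main pores of other currents were not called. Kcnh2, the pore of the rapid delayed rectifier, differed by 0.31 ± 0.10 (adjusted p = 0.035, edgeR) and Cacna1c, the L-type calcium channel pore, by 0.49 ± 0.14 (adjusted p = 0.0161, edgeR), both under the fold threshold. Of the transient outward pores, Kcnd2 differed by 0.24 ± 0.35 (adjusted p = 0.655, edgeR), and Kcnd3 was under the filter with 2 to 4 counts per library.

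**Figure D3:**
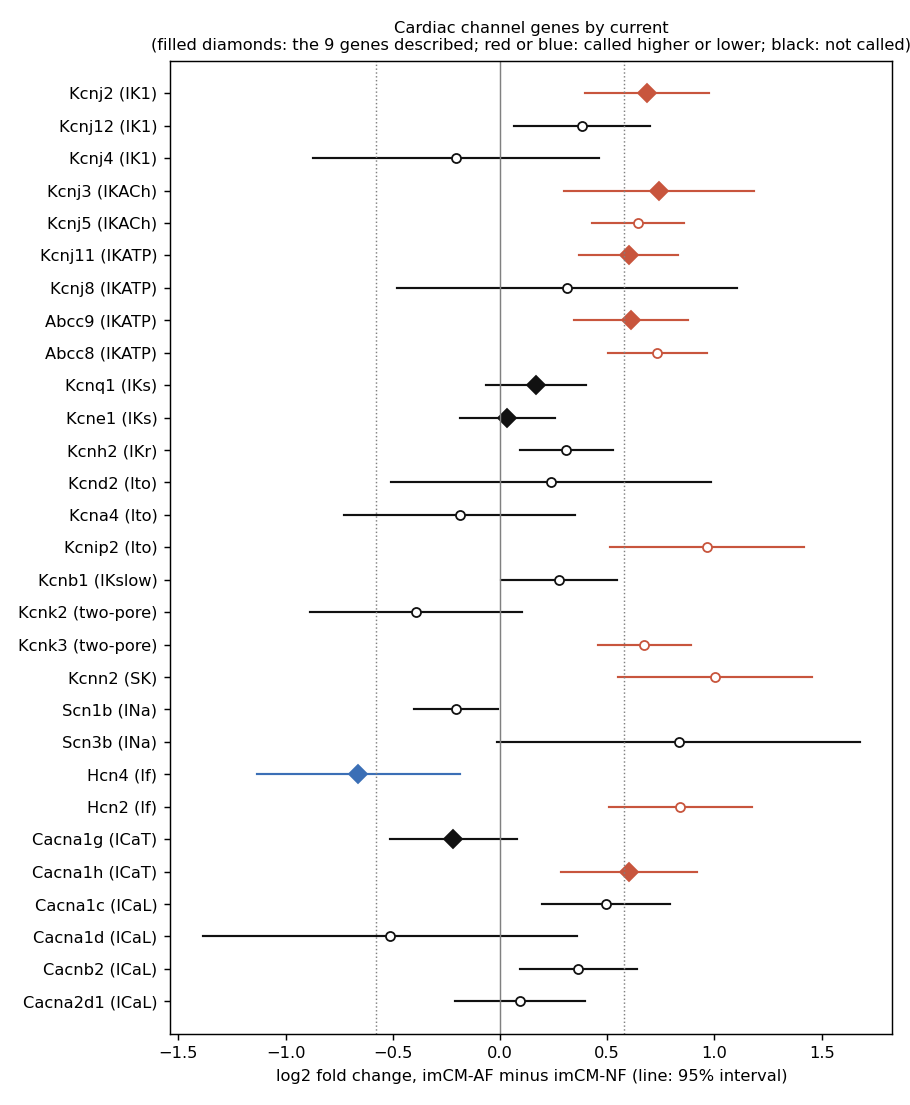
Log2 fold change, imCM-AF minus imCM-NF, with 95% intervals for 29 of the 31 tested genes of a list of cardiac channel genes, ordered by current. Filled diamonds are the 9 genes described, open circles the others, red and blue mark genes called higher and lower, and dotted lines mark the fold threshold of 0.58. Of the 12 called genes, Hcn4 is the one below 0.

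Levels of different genes can be compared only per length, so CPM was divided by the kilobases of annotated exon, which gives RPKM. In imCM-NF the order by mean RPKM was Kcnq1 (30.1), Kcne1 (24.98), Kcnj11 (10.9), Abcc9 (10.4), Cacna1g (10.1), Cacna1h (3.17), Kcnj2 (3.07), Hcn4 (1.18) and Kcnj3 (1.103). The libraries of Kcnq1 and Kcne1 overlap, as do those of Kcnj11, Abcc9 and Cacna1g, of Cacna1h and Kcnj2, and of Hcn4 and Kcnj3. In imCM-AF the mean RPKM was 33.7 for Kcnq1, 25.5 for Kcne1, 16.5 for Kcnj11, 15.8 for Abcc9, 8.67 for Cacna1g, 4.90 for Kcnj2, 4.73 for Cacna1h, 1.81 for Kcnj3 and 0.736 for Hcn4. Hcn4 stood lowest in imCM-AF, where its RPKM of 0.731 and 0.742 was below the 1.68 and 1.93 of Kcnj3.

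In the single-cell library of cardiomyocytes, wells were read by the Type name the authors gave them. NFNCM and AFNCM resemble the names of the bulk columns, the files do not say what NCM0 stands for, and each numbered name comes from 1 source position. Of 1409 wells that were not controls, 1283 passed the quality filter. In 985 of these, cardiomyocyte markers held at least 90% of the UMIs of cardiomyocyte and fibroblast markers together, and these are called cardiomyocyte-marker wells. They made up 65.4% to 68.1% of kept AFNCM wells, 74.2% to 85.6% of NFNCM wells and 87.8% to 89.1% of NCM0 wells. With 1 library there is no test between names, and intervals cover counting error only. The cardiomyocyte and fibroblast libraries share 269 well barcodes, and doublets were not searched for.

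Kcne1 and Abcc9 were seen in the most wells of the 9 genes. Kcne1 had at least 1 UMI in 635 of 985 cardiomyocyte-marker wells (64.5%, exact binomial 95% interval 61.4% to 67.5%) and Abcc9 in 413 (41.9%, 38.8% to 45.1%). Cacna1g was seen in 20.2% of these wells, Kcnq1 in 11.98%, Kcnj3 in 7.51%, Kcnj2 in 4.47%, Hcn4 in 1.42%, Cacna1h in 1.22% and Kcnj11 in 0.203%. As a background, 795 fibroblast-library wells had a cardiomyocyte marker share under 50%, at a median of 27515 UMIs per well against 17236. Their shares were 1.89% for Kcne1, 2.26% for Abcc9, 3.14% for Cacna1g, 0.503% for Kcnq1, 0.629% for Kcnj3 and 1.89% for Kcnj2. Cacna1h (1.13%) and Kcnj11 (0.629%) were as frequent in that background as in cardiomyocyte-marker wells, within counting error. Hcn4 (0.629% in the background) had 19 UMIs in 14 cardiomyocyte-marker wells, too few to compare the Type names. Kcnj11 had 2 UMIs in all cardiomyocyte-marker wells, although its mean level per length in bulk was next after Kcnq1 and Kcne1. On that scale its bulk libraries overlapped those of Abcc9. Bulk counts used RefSeq genes, and well counts used Ensembl genes. The lower end of Kcnj11 is at 46097123 in RefSeq and at 46093953 in GENCODE. Its part in this contrast was not tested.

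Levels in wells are given as UMI CPM, which is CPM computed on the nuclear UMIs of the wells. Kcnj2 was low in single wells and was also found in fibroblasts. It had 9.45, 3.06 and 1.87 UMI CPM in NFNCM wells, 8.92, 5.72 and 3.202 in AFNCM wells, and 6.99 and 5.62 in NCM0 wells. The names overlap. In the background wells named AF1 or AF2, Kcnj2 had 72 UMIs, or 9.10 UMI CPM, of which 38 were in 1 well, and was seen in 4.33% of 208 wells. In those named NF1 or NF2 it was seen in 0 of 192 wells, which allows a share of up to 1.56%. Other names of the fibroblast library do not keep this order. Over all their kept wells, Kcnj2 was seen in 3.60% of 111 NF0_2 wells and 1.11% of 180 NF0_1 wells. It was seen in 4.44% of 90 AF0_2 wells and in 0 of 67 AF0_1 wells.

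Kcne1 had 521, 402 and 479 UMI CPM in NFNCM wells and 394, 459 and 288 in AFNCM wells. These overlap. NCM0 wells gave the highest value, 726, and one of the lowest, 341. Abcc9 had 124, 119 and 115 UMI CPM in NFNCM wells, 93.2, 110.0 and 114 in AFNCM wells, and 89.3 and 136 in NCM0 wells. The nearest of these, NFNCM3 (Poisson 95% interval 103 to 127) and AFNCM3 (104 to 126), were practically equal. Abcc9 was thus not higher in AFNCM wells, whereas in bulk it was higher in imCM-AF.

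Cacna1g had 18.9, 47.8 and 49.2 UMI CPM in NFNCM wells, 35.7, 16.6 and 10.9 in AFNCM wells, and 43.4 and 75.9 in NCM0 wells. NFNCM1 lay among the AFNCM values, so the names overlap. After each well was thinned to 5000 UMIs, Cacna1g was found in 8.60%, 15.8% and 15.5% of NFNCM wells, 5.71%, 5.41% and 1.96% of AFNCM wells and 15.4% and 18.8% of NCM0 wells. Without thinning the shares were 11.1%, 27.1% and 21.0% in NFNCM wells, 14.4%, 19.8% and 11.97% in AFNCM wells, and 25.5% and 29.5% in NCM0 wells. Thinning kept 323 of 418 NFNCM, 283 of 340 AFNCM and 190 of 227 NCM0 wells. For NFNCM1 and AFNCM1 the thinned share and the UMI CPM go opposite ways, so no order is read from the shares.

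Kcnq1 had 13.8, 16.7 and 12.8 UMI CPM in NFNCM wells, 20.8, 23.1 and 31.5 in AFNCM wells, and 20.0 and 19.0 in NCM0 wells. The AFNCM values were above the NFNCM values. Single wells weighed heavily, with 40 UMIs in 1 AFNCM2 well, and 10 wells held 42.5% of all Kcnq1 UMIs. The thinned shares of wells overlap, with 6.45%, 3.33% and 6.36% for NFNCM and 7.14%, 2.70% and 9.80% for AFNCM.

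**Figure D4:**
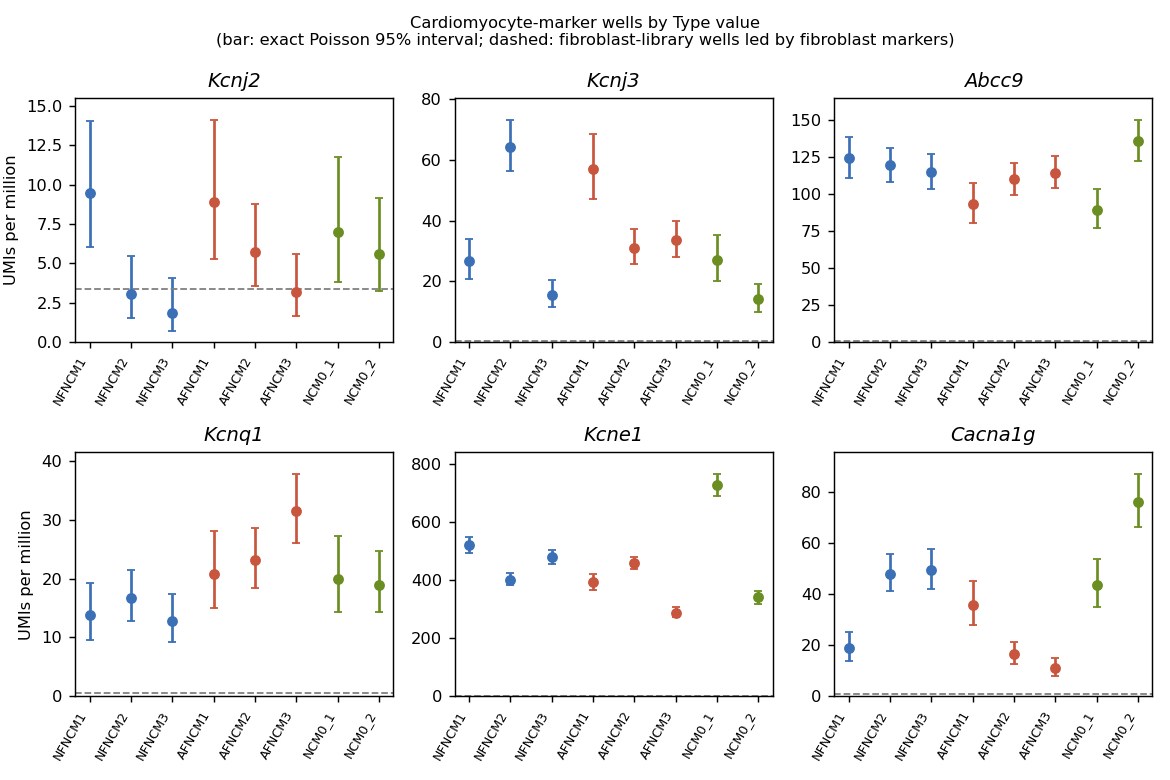
UMI CPM of 6 of the 9 genes in cardiomyocyte-marker wells, by Type name (blue NFNCM, red AFNCM, green NCM0), with exact Poisson 95% intervals for counting error. The dashed line is the level in fibroblast-library wells with a cardiomyocyte marker share under 50%. Kcnj2 lies around that line (3.38), while Kcne1, Abcc9 and Cacna1g lie above it. Kcnj2 UMIs of the fibroblast library were concentrated in few wells. Over kept wells, 38 of 41 in AF2, 21 of 34 in AF1 and 18 of 21 in NF0_2 were in 1 well each. By share of wells, Kcnj2 was more frequent in cardiomyocyte-marker wells than in the background wells, as given above.

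Kcnj3 was concentrated in few wells. It was seen in 74 of 985 cardiomyocyte-marker wells, and 10 wells held 50.9% of its UMIs. In wells with a Kcnj3 UMI, 6 atrial markers summed to 29970 UMI CPM, against 910.5 in wells without one, while 4 ventricular markers summed to 3823 against 7786. Wells with Kcnj3 were deeper, with a median of 25912.5 UMIs against 16502. The Type names overlap for Kcnj3, with 26.8, 64.3 and 15.6 UMI CPM in NFNCM wells, 57.0, 31.0 and 33.6 in AFNCM wells, and 27.0 and 14.1 in NCM0 wells.

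The wells were then split by whether atrial or ventricular markers held more UMIs, a split chosen after these values were seen. Atrial markers led in 88 wells and ventricular markers in 887, 10 wells were tied, and 58 wells had an atrial share between 40% and 60%, so the classes are ranges and not cell types. The median well had 39 UMIs of the atrial light chain Myl7 and 11 of the ventricular light chain Myl2 where atrial markers led, and 3 and 125 where ventricular markers led. Median depth was 10527.5 UMIs in atrial-led and 17817 in ventricular-led wells. Atrial-led wells made up 10.4%, 6.43% and 9.79% of NFNCM wells, 12.4%, 10.3% and 11.97% of AFNCM wells, and 7.14% and 3.88% of NCM0 wells, although the methods name left ventricles as the source.

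Kcnj3 had 324 UMI CPM (Poisson 95% interval 299 to 350) in atrial-led wells and 7.13 (6.04 to 8.34) in ventricular-led wells. The difference had the same direction in all 8 Type names, with 83.8 to 644 UMI CPM in atrial-led wells and 0.597 to 12.4 in ventricular-led wells. The split followed the sight of Kcnj3 with atrial markers in the same wells, so these values restate that result. The names are of 1 library and not known to be replicates. Kcnj3 was found in 43.2% of atrial-led and 3.95% of ventricular-led wells, or 42.9% and 2.33% after thinning. Its partner Kcnj5 had 40.8 against 10.5 UMI CPM, and the receptor gene Abcc8 had 16.6 against 4.53.

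Kcne1 and Abcc9 had the opposite order. Kcne1 had 96.7 UMI CPM in atrial-led wells and 466 in ventricular-led wells, and was found in 28.4% and 68.4% of wells, or 22.2% and 60.1% after thinning. Abcc9 had 26.7 against 122 UMI CPM, in 7.95% and 45.7% of wells, or 4.76% and 28.9% after thinning. It was seen in 0 of 37 atrial-led NFNCM wells, which allows a share of up to 8.11%. Cacna1g had 11.6 against 38.5 UMI CPM, with 23 UMIs in all atrial-led wells. Kcnq1 had 19.1 and 20.2 UMI CPM, and 36 of its 38 UMIs in atrial-led wells were in 1 well.

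**Figure D5:**
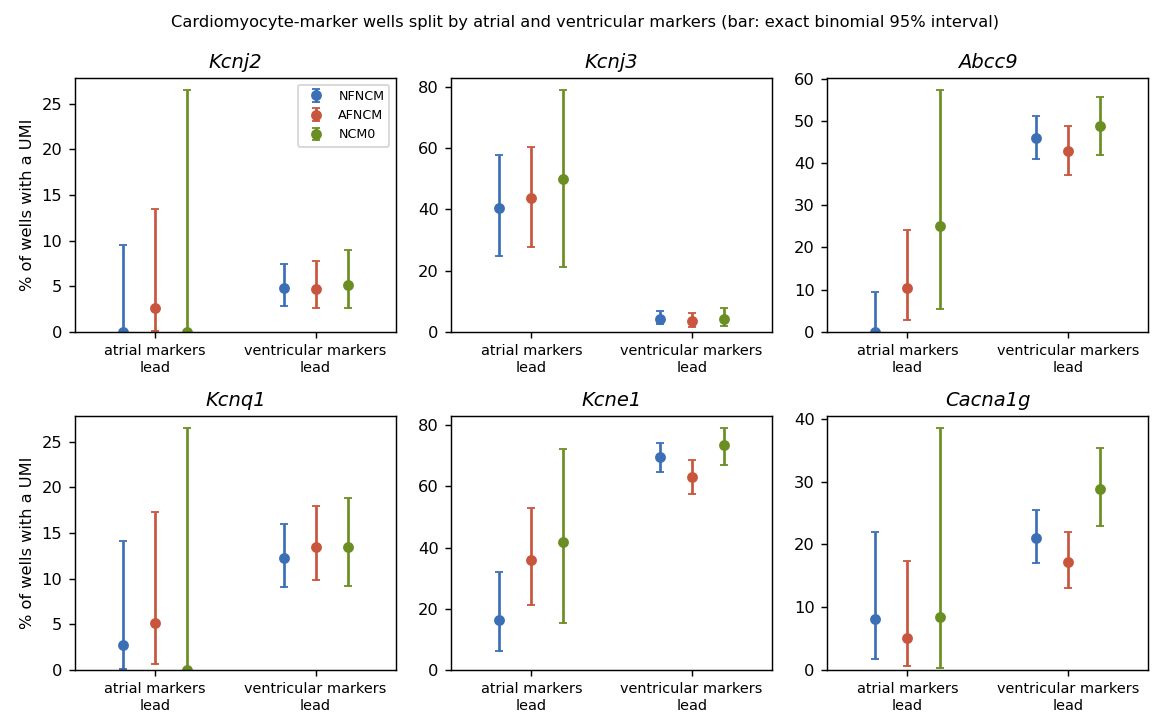
Percent of wells with at least 1 UMI for 6 of the 9 genes, in cardiomyocyte-marker wells in which atrial or ventricular markers hold more UMIs (blue NFNCM, red AFNCM, green NCM0), with exact binomial 95% intervals. Kcnj3 is found in 43.2% of all atrial-led wells and 3.95% of ventricular-led wells, and Kcne1 and Abcc9 show the opposite order.

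Within ventricular-led wells, Kcne1 had 551, 435 and 508 UMI CPM in NFNCM names and 468, 474 and 320 in AFNCM names, which overlap. Abcc9 had 136, 130 and 122 in NFNCM names and 111, 118 and 122 in AFNCM names. Cacna1g had 19.9, 48.9 and 51.7 in NFNCM names and 38.8, 18.0 and 12.4 in AFNCM names, the same overlap as over all cardiomyocyte-marker wells. Fibroblast markers summed to 2426 to 2981 UMI CPM over all kept wells of AFNCM names and to 777 to 1253 in NFNCM names, the reverse of their order in the bulk groups. In cardiomyocyte-marker wells, pooled over AFNCM and over NFNCM names, fibroblast markers still summed to 621 against 240.2 UMI CPM, endothelial markers to 199.7 against 51.8 and cardiomyocyte markers to 46048 against 51017. Their part in the AFNCM and NFNCM values and in the differences between bulk and single wells was not tested.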

How the data were processed

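The bulk table holds raw counts by Entrez gene as the authors deposited them. Per the study's methods, reads were aligned to mm10 with subread and uniquely placed reads were assigned to built-in RefSeq genes by featureCounts. The nanowell tables, also deposited by the authors, hold UMI counts of each gene in each well and counts of read pairs for each well, made with STAR and featureCounts on Ensembl genes. The submitters' processing notes name STAR 2.5.2b and Subread 1.4.6-p1.

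Bulk counts were tested with edgeR 4.0.16 in R 4.3.3 (TMM, CPM over 1 in at least 2 libraries, quasi-likelihood test with Benjamini-Hochberg adjustment over all genes). The standard error is the log2 fold change divided by the square root of F. DESeq2 and limma-voom were alternatives. Symbols and coordinates were matched by Entrez identifier to RefSeq (GRCm38.p6). Exon lengths came from GENCODE, which may differ from the lengths used in counting.

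A well was used if it had 500 genes or more, if more than 50% of its screened pairs aligned and if its UMI total lay within 2 SD of the mean over 1648 named wells, leaving out mitochondrial genes and spike-ins. The lower bound of this UMI rule was negative, so the rule removed only wells above 111857 UMIs. Intervals are exact at 95% and cover counting error only. A count of 0 allows up to 3 counts. Limits given for shares of 0 use this rule and lie below the upper ends of the exact intervals. For Kcnj11, seen in 0 of 97 AFNCM1 wells, the limit is 3.09% by this rule and 3.73% by the exact interval.

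The genes and lists were chosen with earlier results of these data known. All 9 genes are named, with each further listed channel gene that was called and main pores of the other currents. Some listed genes are counted but not reported singly here.

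Libraries with the same replicate number did not deviate together (correlation -0.13 over 14041 genes).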

Additional observations from a re-analysis of the deposited data

How the results depend on the processing

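Each group has 2 libraries, so the spread is estimated mostly from other genes, and low counts limit Kcnj3 and Hcn4 most. Without each library in turn, the count of called genes ran from 879 to 1929 (1564 with all), that of the 9 genes from 1 to 5 and that of the 22 other channel genes from 6 to 9. The log2 fold change then ran from 0.52 to 0.85 for Kcnj2, 0.48 to 0.9999 for Kcnj3, 0.46 to 0.74 for Kcnj11, 0.40 to 0.85 for Abcc9, 0.29 to 0.95 for Cacna1h, -0.88 to -0.44 for Hcn4, 0.0022 to 0.35 for Kcnq1, -0.10 to 0.18 for Kcne1 and -0.51 to 0.038 for Cacna1g. A log2 threshold of 1 left 565 genes, 0 of the 9 and 1 other channel gene, and the adjusted p alone gave 3789 genes (27%), 6 of the 9 and 10 others.

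Scaling to cardiomyocyte markers, added after seeing the data, left 619 called genes, 0 of the 9 and 0 others, with adjusted p of 0.42 to 0.521 for the 5 genes that rose. The values were 0.47 for Kcnj2, 0.54 for Kcnj3, 0.40 for Kcnj11, 0.42 for Abcc9, 0.42 for Cacna1h, -0.021 for Kcnq1, -0.16 for Kcne1, -0.86 for Hcn4 and -0.11 for Cacna2d1. DESeq2 gave 0.73 for Kcnj3 and -0.67 for Hcn4, both not called, and upper quartile scaling gave -0.63 for Hcn4. The cause of these losses was not tested. DESeq2 called 4 of the 9 genes, upper quartile scaling 5, and each other scaling, filter or tool 6. The calls over all tested genes in these settings are not given here. A setting that calls fewer genes of any kind can thus not be told from a loss among the 9.

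With the replicate number as a block, 1430 genes and 5 of the 9 were called, since Hcn4 (-0.66) was lost, and the block changed no other call among the 9. Crossing the numbers, tried because the correlation of deviations was negative, gave 1668 genes and 6 of the 9.

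Without 1 library the sign turned for Kcne1 (-0.10 without imCM-NF replicate 2, -0.01 without the second imCM-AF library) and Cacna1g (0.038 without imCM-AF replicate 1), and the values ran from -0.84 to 0.27 for Kcnj4, -0.13 to 0.53 for Kcnd2 (-0.05 without imCM-NF replicate 2), -0.46 to 0.079 for Kcna4 and -0.21 to 0.36 for Cacna2d1 (-0.05 without imCM-NF replicate 2), none of which was called with all libraries. Where 1 library was left in a group, its spread was taken from the other libraries. Of 27 single-cell levels (9 genes in pooled AFNCM, NFNCM and NCM0 names), set against all kept wells, cardiomyocyte-marker wells moved 13 beyond the counting interval, equal weights for wells 9 and no quality filter 5. Thinning moved 16 of 27 shares of wells. Set against the levels in cardiomyocyte-marker wells, 25 of 27 stayed within the interval at a marker share of 80% and 21 at 95%. The exceptions at 80% were Abcc9 in AFNCM (101 against 108 UMI CPM) and Kcne1 in NFNCM (441 against 461). At 95% they were Abcc9 in AFNCM (123) and NFNCM (127 against 119), Kcne1 in AFNCM (423 against 377) and NFNCM (483), Kcnq1 in AFNCM (29.7 against 26.0) and Kcnj2 in AFNCM (3.95 against 5.40).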

Other observations

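Kcnj8, which encodes the Kir6.1 pore, had 58 UMIs in atrial-led wells, of which 57 were in 1 well. Kcnk2, a stretch-activated potassium channel gene, had 5.96 UMI CPM in all kept wells of the cardiomyocyte library, 2.03 in its cardiomyocyte-marker wells and 9.64 in kept wells of the fibroblast library. Kcnh2, the pore of the rapid delayed rectifier, had 80.6 UMI CPM in atrial-led wells and 61.6 in ventricular-led wells.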
